A study of Homo sapiens with 41 samples.

Results

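Wide Elongin A peaks are the 393 of 8720 peaks in the goat antibody list that were at least 1000 bp long, which is 4.51% of the list. They were selected on width alone, so the widths themselves, and the fold enrichment and q-values that come from the same peak call, are given below as a description. The remaining 8327 peaks of the list, all under 1000 bp, are called narrower peaks and serve as the comparison. The study mapped Elongin A in DLD1 cells, an established line from a human colorectal tumour, which received no siRNA for these maps. Cells were fixed with formaldehyde, and CUT&RUN, in which an antibody tethers a nuclease that releases the DNA around its target, was carried out with a goat antibody against Elongin A (2 replicates) and with normal goat IgG as the control (1 sample). A mouse antibody against Elongin A (1 sample, with 1 mouse IgG sample) gave 2338 peaks, and ChIP-seq (1 sample, with 1 input) gave 186 peaks. The 1 goat antibody list does not separate its 2 replicates and carries no read totals, so the depth is unknown and no replicate spread can be given. Intervals below are 95% Wilson intervals of shares and Newcombe intervals of differences. They cover counting error only, because peaks of 1 list are not replicates.

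Elongin A is the transcriptionally active subunit of Elongin, a complex with Elongin B and Elongin C that raises the rate of RNA polymerase II elongation in vitro by shortening pauses. How far it does so in cells is a separate question that peak lists do not address. It can also direct a ubiquitin ligase to stalled polymerase. Factors that travel with polymerase can be detected along a transcribed gene and beyond the site where its transcript is cleaved, whereas factors held at the start site give compact peaks there.

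The sequences below show the kinds of places where wide peaks had their summits, the base of highest signal. SRSF1 carried the strongest wide peak, with its summit just upstream of the gene (chr17:56084700-56084999). DDX5 carried the widest, with its summit past the end of the transcript and near the start of POLG2 (chr17:62493325-62493624). GAS5 carried the widest peak over a snoRNA gene, with its summit inside the host transcript (chr1:173832524-173832823). RPSA carried the widest peak over a ribosomal protein gene after RPL27A, whose summit lay in a UTR that is not printed, and the RPSA summit lay past the transcript end (chr3:39455162-39455461). FAT1 carried 7 wide peaks, and the widest had its summit in an intron (chr4:187620570-187620869). RNVU1-18, a U1 snRNA variant gene, carried the strongest wide peak at an snRNA gene that was in all 3 lists (chr1:149223818-149224117). All are 300 bases of hg19 (GRCh37), printed along the strand of the gene, which is the minus strand for each gene except RPSA. In the first 5, capitals mark CG dinucleotides. In RNVU1-18 they mark the last 60 bases of the snRNA gene, and the summit lies 192 bases after them.
SRSF1: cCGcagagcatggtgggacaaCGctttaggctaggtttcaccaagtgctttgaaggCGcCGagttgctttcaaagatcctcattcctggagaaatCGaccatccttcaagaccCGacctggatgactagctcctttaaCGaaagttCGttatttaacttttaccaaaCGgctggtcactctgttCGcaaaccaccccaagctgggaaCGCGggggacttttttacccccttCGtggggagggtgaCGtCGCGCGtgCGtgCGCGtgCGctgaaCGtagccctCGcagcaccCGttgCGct
DDX5: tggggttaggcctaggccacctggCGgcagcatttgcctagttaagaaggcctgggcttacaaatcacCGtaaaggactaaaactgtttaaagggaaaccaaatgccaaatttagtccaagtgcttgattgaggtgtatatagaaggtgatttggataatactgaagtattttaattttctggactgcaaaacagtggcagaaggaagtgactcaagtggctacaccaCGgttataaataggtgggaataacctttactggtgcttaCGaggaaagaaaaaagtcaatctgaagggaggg
GAS5: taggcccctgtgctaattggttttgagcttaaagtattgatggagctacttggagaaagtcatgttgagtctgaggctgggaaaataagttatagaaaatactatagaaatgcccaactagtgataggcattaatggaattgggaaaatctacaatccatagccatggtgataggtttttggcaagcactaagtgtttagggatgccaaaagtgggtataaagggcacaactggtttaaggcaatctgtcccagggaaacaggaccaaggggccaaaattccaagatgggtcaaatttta
RPSA: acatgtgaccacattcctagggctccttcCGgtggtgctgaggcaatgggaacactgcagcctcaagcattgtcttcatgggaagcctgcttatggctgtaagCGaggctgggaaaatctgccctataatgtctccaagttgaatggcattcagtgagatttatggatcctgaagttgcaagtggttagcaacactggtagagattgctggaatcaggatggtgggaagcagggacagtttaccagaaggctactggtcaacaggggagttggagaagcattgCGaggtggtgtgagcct
FAT1: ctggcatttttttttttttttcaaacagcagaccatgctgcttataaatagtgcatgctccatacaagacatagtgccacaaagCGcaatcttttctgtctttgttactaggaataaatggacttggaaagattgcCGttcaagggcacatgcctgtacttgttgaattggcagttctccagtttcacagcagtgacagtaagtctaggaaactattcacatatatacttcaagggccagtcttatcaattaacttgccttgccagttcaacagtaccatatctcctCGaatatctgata
RNVU1-18: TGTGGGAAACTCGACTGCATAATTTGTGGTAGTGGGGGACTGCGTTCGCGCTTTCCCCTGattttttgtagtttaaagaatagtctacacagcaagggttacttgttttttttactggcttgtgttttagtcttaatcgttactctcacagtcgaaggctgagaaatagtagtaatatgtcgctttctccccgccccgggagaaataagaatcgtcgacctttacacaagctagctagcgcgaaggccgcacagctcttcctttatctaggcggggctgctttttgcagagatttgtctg

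The SRSF1 window held 25 CG dinucleotides and was 55.3% G and C. The other summit windows with marked dinucleotides held 4 (DDX5), 0 (GAS5), 3 (RPSA) and 3 (FAT1).

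Wide peaks ranged from 1002 to 8791 bp with a median of 1313 bp, and 251 of them were under 1500 bp, 65 were from 1500 to below 2000 bp and 77 were 2000 bp or longer. They made up 16.8% of all bases covered by the list. Their fold enrichment over goat IgG ranged from 2.28 to 43.6 with a median of 5.69, beside a median of 4.31 in the narrower peaks. The ranges of fold enrichment overlapped widely, and the strongest narrower peak reached 25.7-fold. Just inside the threshold were peaks of 1002 bp in MAP3K20 (4.68-fold) and in SH3RF1 (5.35-fold) and of 1003 bp at HMGB2 (3.52-fold). Outside it were peaks 1 bp short of the threshold at HYAL2 (5.40-fold) and of 997 bp in STEAP1B (4.47-fold). Width and strength were therefore different orders of the same list, which the plot of width against fold enrichment shows.

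**Figure D1:**
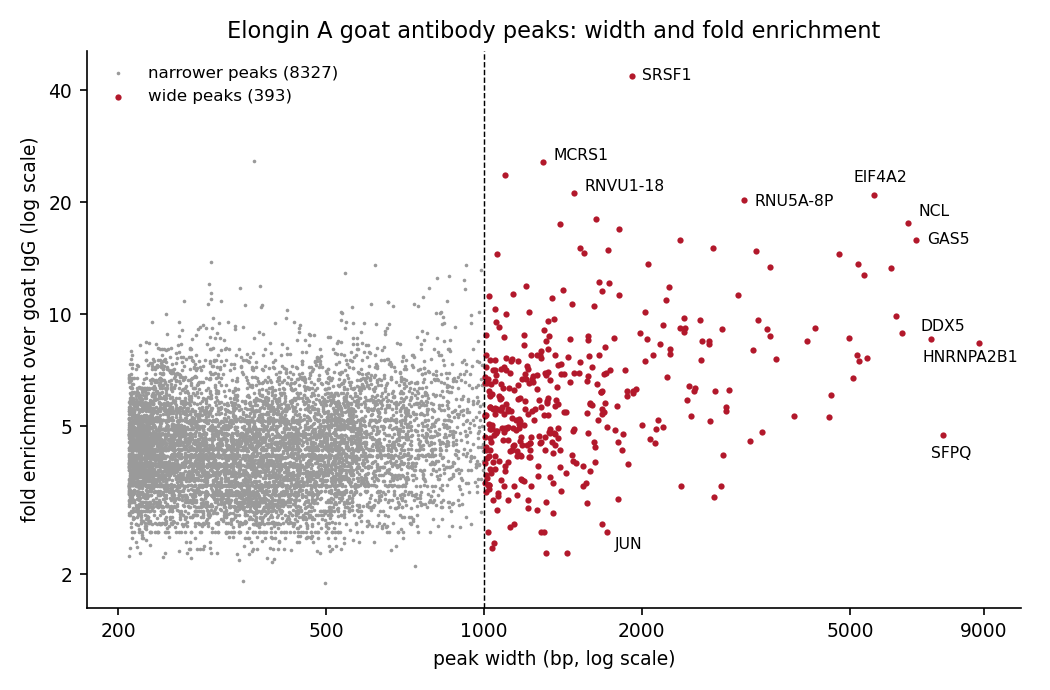
Each point is 1 goat antibody peak, with its width in bp on a log scale on the x axis and its fold enrichment over goat IgG on a log scale on the y axis. The 393 wide peaks (red) lie right of the dashed line at 1000 bp, with DDX5 widest at 8791 bp and SRSF1 strongest at 43.6-fold.

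Which parts of genes held the wide peaks was asked with 1 point per peak, so that a long peak had no more chances than a short one. The clearest difference was at transcript ends. By their centres, 99 wide peaks (25.2%, interval 21.2 to 29.7) lay in a TTS window, the stretch from 100 bp before to 1000 bp after an annotated transcript end, compared with 554 narrower peaks (6.65%, 6.14 to 7.21), a difference of 18.5 percentage points (14.5 to 23.1). Gene bodies held fewer wide peaks, 35.9% beside 50.1% of narrower peaks, and intergenic sequence also held fewer, 9.92% beside 18.4%. In promoter windows, from 1000 bp before to 100 bp after a start site, the shares were 29.0% and 24.8%, and the interval of the difference, from -0.123 to 9.01 points, included 0. With basic transcripts of genes that have a curated RefSeq accession, the wide promoter share was 15.5% and the difference was -1.57 points (-4.91 to 2.42), so the direction of the promoter difference depended on the gene set. Small RNA genes inside longer genes bring windows of their own. With them left out, the TTS shares were 22.6% and 6.44% and the promoter shares 27.2% and 24.3%. With protein-coding genes alone the TTS shares were 20.1% and 5.22% and the intergenic shares 20.6% and 30.7%.

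The summits gave the same picture. A summit lay within 1000 bp of the end of a canonical coding transcript in 77 wide peaks (19.6%, 16.0 to 23.8) and 358 narrower peaks (4.30%, 3.88 to 4.76). It lay within 500 bp of a coding start site in 42 wide peaks (10.7%) and 1047 narrower peaks (12.6%), with a difference of -1.89 points (-4.67 to 1.63). An exon of any annotated transcript held the summit of 31.6% of wide and 16.7% of narrower peaks. Last exons of coding transcripts held 36 wide summits (9.16%, 6.69 to 12.4) and 206 narrower ones (2.47%, 2.16 to 2.83). A 3′ UTR, in the last exon or an earlier one, held 36 wide (9.16%) and 198 narrower summits (2.38%). First exons held 6 wide summits (1.53%) and 218 narrower ones (2.62%), and the interval of this difference included 0. First introns held 17.3% and 18.9% of summits and later introns 28.5% and 26.9%, and both intervals of the difference included 0.

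The TTS share changed little with width among peaks under 700 bp and was higher in each wider class. It was 5.68% in peaks under 300 bp, 7.55%, 6.84% and 6.58% in the next 3 classes up to 700 bp, 8.67% from 700 to below 1000 bp, 19.1% from 1000 to below 1500 bp, 29.2% from 1500 to below 2000 bp and 41.6% (31.2 to 52.7) at 2000 bp or more. Over the same widths the promoter share stayed between 23.2% and 29.5%. Fold enrichment also rose with width, so the TTS share was compared within ranges of enrichment. Below 5-fold it was 17.1% of 146 wide peaks and 6.47% of 5950 narrower peaks, and at 10-fold or more it was 48.8% of 41 wide peaks and 5.26% of 38 narrower peaks. The intervals of the wide and narrower shares did not overlap in any of the 4 ranges.

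**Figure D2:**
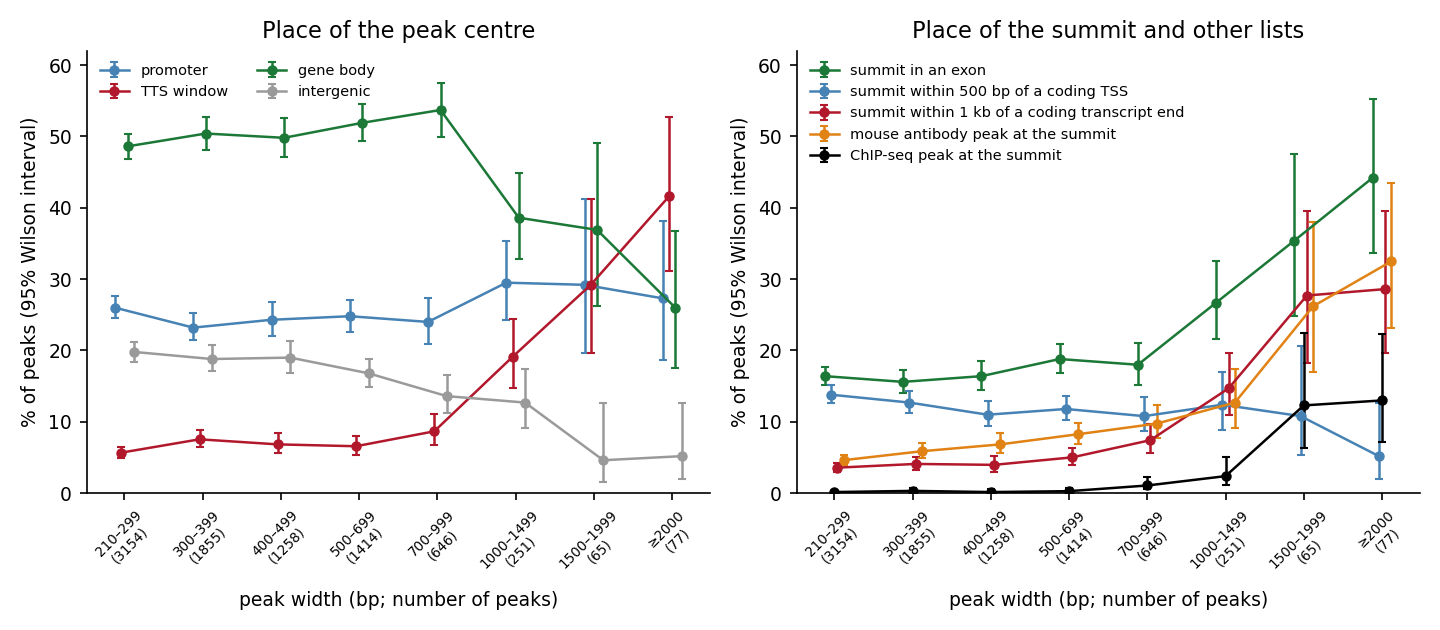
Percent of peaks (y axis, with 95% Wilson intervals) in 8 classes of peak width (x axis, number of peaks in parentheses), by the place of the peak centre (left) and by the place of the summit or a peak of another list there (right). The TTS share rises to 41.6% and the exon share to 44.2% in the widest class, while the promoter share stays between 23.2% and 29.5%.

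Of the 393 wide peaks, 284 overlapped the canonical transcript of a protein-coding gene, a further 45 overlapped a long noncoding RNA, 7 overlapped a small RNA gene alone and 57 overlapped none of these. The coding transcripts that held them, counted once per peak, were shorter than those that held narrower peaks. A host was chosen by overlap with the whole peak, so a long peak had more chances to reach one. The median length was 23544 bp, beside 79363 bp for the transcripts of narrower peaks, and 98 of 284 (34.5%, 29.2 to 40.2) were under 10 kb compared with 506 of 4490 (11.3%, 10.4 to 12.2). At 100 kb or more were 63 of 284 (22.2%) and 1940 of 4490 (43.2%). On transcripts under 10 kb, the summit was within 1000 bp of a coding transcript end in 51.0% (41.3 to 60.7) of wide and 24.7% (21.1 to 28.6) of narrower peaks, and within 500 bp of a coding start site in 21.4% and 35.8%. On transcripts of 50 kb or more, wide summits were within 1000 bp of an end in 6.25% and narrower ones in 1.00%. Of the 284, 58 ran over the transcript end, 32 over the start and 3 over the whole transcript, and 191 lay inside. A long peak covers more of a gene by construction, so these counts are a description.

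Several of the 10 widest peaks were on genes for proteins that bind RNA. DDX5, an RNA helicase that acts in transcription and splicing, had 1 peak of 8791 bp (chr17:62493158-62501948, 8.36-fold) that began 459 bp after the start site and ended 1214 bp past the transcript end, and peaks covered 94.3% of its 8.04 kb transcript. This peak also ran over the start site of POLG2, the neighbouring gene for a mitochondrial DNA polymerase subunit, and its summit lay at -303 bp from that start site. SFPQ, a splicing and paraspeckle protein, had a 7530 bp peak of 4.74-fold that began 5858 bp into the transcript and ran 3178 bp beyond its end. HNRNPA2B1, which binds nuclear pre-mRNA, had 2 wide peaks, 7135 bp over its end (8.59-fold) and 6288 bp over its start (8.89-fold). Peaks covered 87.8% of it. NCL, the nucleolar protein nucleolin, had a 6437 bp peak of 17.6-fold that began 6133 bp into the transcript and held the intronic snoRNA genes SNORA75 and SNORD20.

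HNRNPA1 had 2 wide peaks, the wider 4756 bp and 14.5-fold, that covered 91.6% of it together. HNRNPDL had 1 of 4602 bp, HNRNPC had 3 of up to 1646 bp, and HNRNPAB, HNRNPH1, HNRNPU and PTBP1 were assigned 1 each between 1088 and 1458 bp. Those of HNRNPAB (1458 bp) and HNRNPU (1164 bp) were also counted for the neighbours PHYKPL and COX20. Peaks covered only 156 bp of the HNRNPAB transcript and 533 bp of the HNRNPU transcript. Among SR proteins, which direct splice site choice, TRA2B had 4 wide peaks of up to 4547 bp that lay in the first part of its transcript. SRSF3 had 2, and SRSF6, SRSF7 and SRSF1 had 1 each. The SRSF1 peak was the strongest of the whole list at 43.6-fold. It was 1912 bp, from position -769 bp relative to the start site into the gene, and had its summit upstream of the transcript. Other wide peaks also ran over a start site, among them those at TRA2B (from -177 bp), HNRNPA2B1 (from -718 bp) and HNRNPA1 (from -877 bp). The HNRNPA1 summit was upstream of its transcript as well. RBM39, another splicing regulator, had 3 wide peaks of up to 4287 bp.

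**Figure D3:**
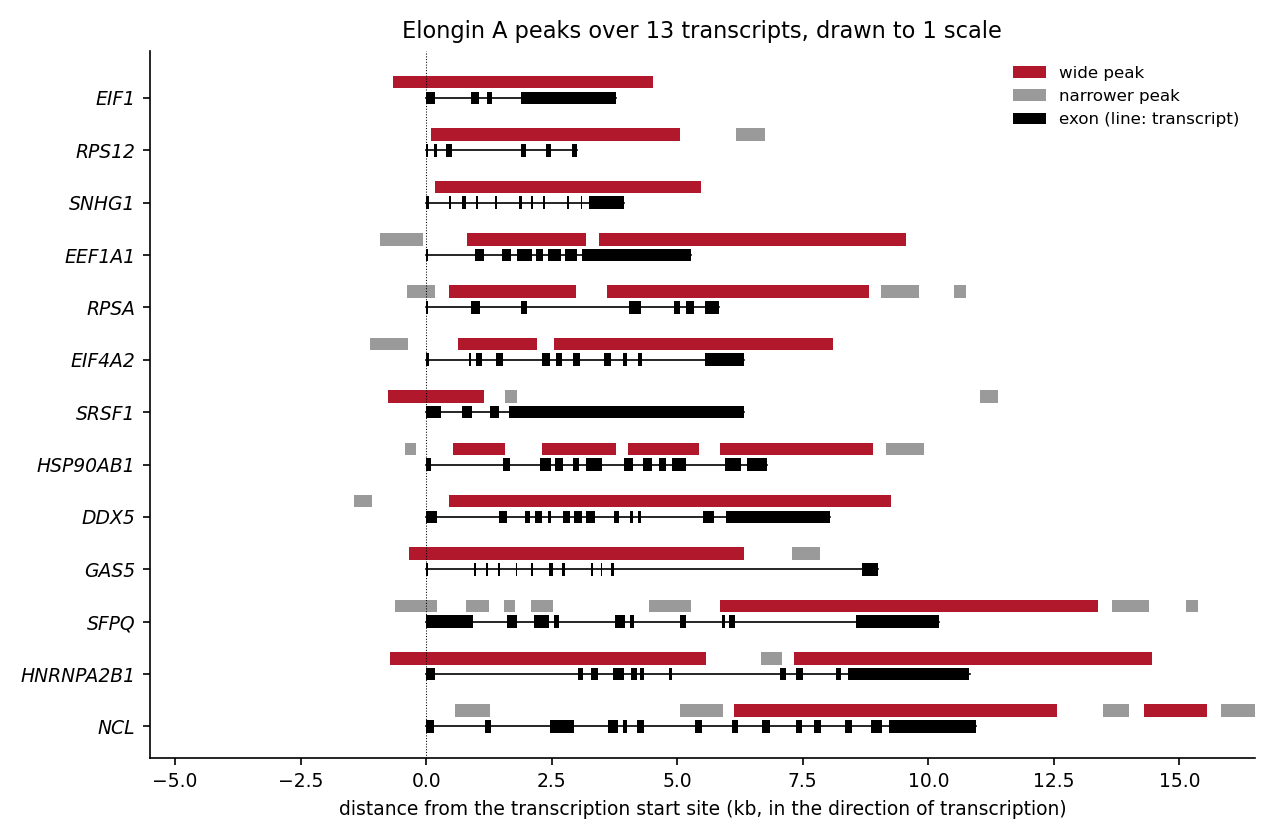
Peaks over 13 transcripts drawn to 1 scale, with the distance from the start site in kb on the x axis, exons as black boxes on a line for the transcript, wide peaks in red and narrower peaks in grey above it. Wide peaks run past the transcript end of DDX5 by 1214 bp, of SFPQ by 3178 bp and of HNRNPA2B1 by 3637 bp, whereas the wide peak of SRSF1 covers its start.

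Genes of the translation machinery formed the next group. EEF1A1, the elongation factor that brings aminoacyl-tRNA to the ribosome, was assigned 3 wide peaks, with one of 6112 bp (9.89-fold) that ran 4279 bp past the transcript end. Another (1841 bp, 4.75-fold) lay wholly past the transcript end and was also counted for the neighbour MTO1. EIF4A2, an RNA helicase of translation initiation, had 2, the wider 5551 bp and 20.96-fold. This peak held the snoRNA genes SNORA81, SNORA63 and SNORA4. EIF1, which takes part in start codon choice, had 1 peak of 5169 bp (13.7-fold) that covered the whole 3.78 kb transcript from position -652 bp relative to its start site to 733 bp past its end. EEF2 and EIF4G2 had 2 wide peaks each, and EIF5, EIF4A1 and EIF2S2 had 1 each. TPT1, which the list used here counts with the translation factors, also had 2. Of cytosolic ribosomal protein genes, 27 of 86 had a wide peak. Among the widest of them were those at RPL27A (5390 bp, 7.61-fold), RPSA (5205 bp, 7.49-fold), RPS12 (4965 bp, 8.62-fold) and RPL37 (2837 bp, 3.46-fold). The RPS12 peak began 87 bp after the start site, ran 2056 bp beyond the end of a 2996 bp transcript and held SNORA33, SNORD100 and SNORD101. The 2 wide peaks of RPSA together began 462 bp into the gene and ended 2992 bp past it.

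Small RNA genes stood out among the wide peaks. Small nuclear RNAs (snRNAs) are the RNA parts of the spliceosome, and most are short, intronless polymerase II transcripts that end at a 3′ box read by the Integrator complex. Wide peaks held 15 whole snRNA genes in 672439 covered bases (2.23 per 100 kb), and narrower peaks held 0 in 3321638. Whole snoRNA genes numbered 27 in wide peaks (4.02 per 100 kb) and 6 in narrower peaks (0.181 per 100 kb). Only annotated genes were counted, and the wide peak over SNHG1, a snoRNA host gene, held 0 annotated snoRNA genes. These counts, and those of summits below, may therefore miss genes. A short peak has less room for a whole gene, so the summits were also counted. Within 500 bp of an snRNA gene lay 14 wide summits (3.56%, 2.13 to 5.89) and 15 narrower summits (0.180%, 0.109 to 0.297). Within 500 bp of a snoRNA gene lay 9 wide summits (2.29%, 1.21 to 4.29) and 34 narrower ones (0.408%, 0.292 to 0.570).

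At snRNA genes the wide peaks lay mainly downstream of the gene. Over 19 pairs of a gene and a wide peak within 500 bp, in 17 peaks, 18 reached farther past the 3′ end than before the 5′ end, with medians of 1566 bp downstream and 464 bp upstream, and 18 had the summit past the 3′ end. The pairs are not separate observations. RNU4-1 and RNU4-2 share a peak, and so do RNU5E-1 and RNU5E-4P, which lie on opposite strands. RNU6-450P is also counted, though it lies outside its peak. At RNVU1-18 the summit was 192 bp past the gene end in a 1483 bp peak (21.2-fold). At RNU5B-1 it was 177 bp past the end in a 2051 bp peak (13.6-fold), and at RNU5E-1 it was 243 bp past the end in a 2734 bp peak (15.1-fold). The U4 genes RNU4-1 and RNU4-2 shared 1 peak of 3299 bp (14.7-fold), with the summit 171 bp past RNU4-2. RNU2-2P (2848 bp), RNU4ATAC (2606 bp) and RNU5D-1 (2166 bp) had their summits 242, 202 and 239 bp past the gene. At RNU1-1 and RNU1-2 the wide peaks lay wholly downstream of the genes, with summits 711 and 769 bp past them. The exception was RNU7-1, the histone pre-mRNA processing RNA, whose summit lay before the gene. The 32 bases around each of these summits occurred once in the genome. Copies of the snRNA genes themselves were not counted. The part that read placement over the genes has in these positions was not tested.

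**Figure D4:**
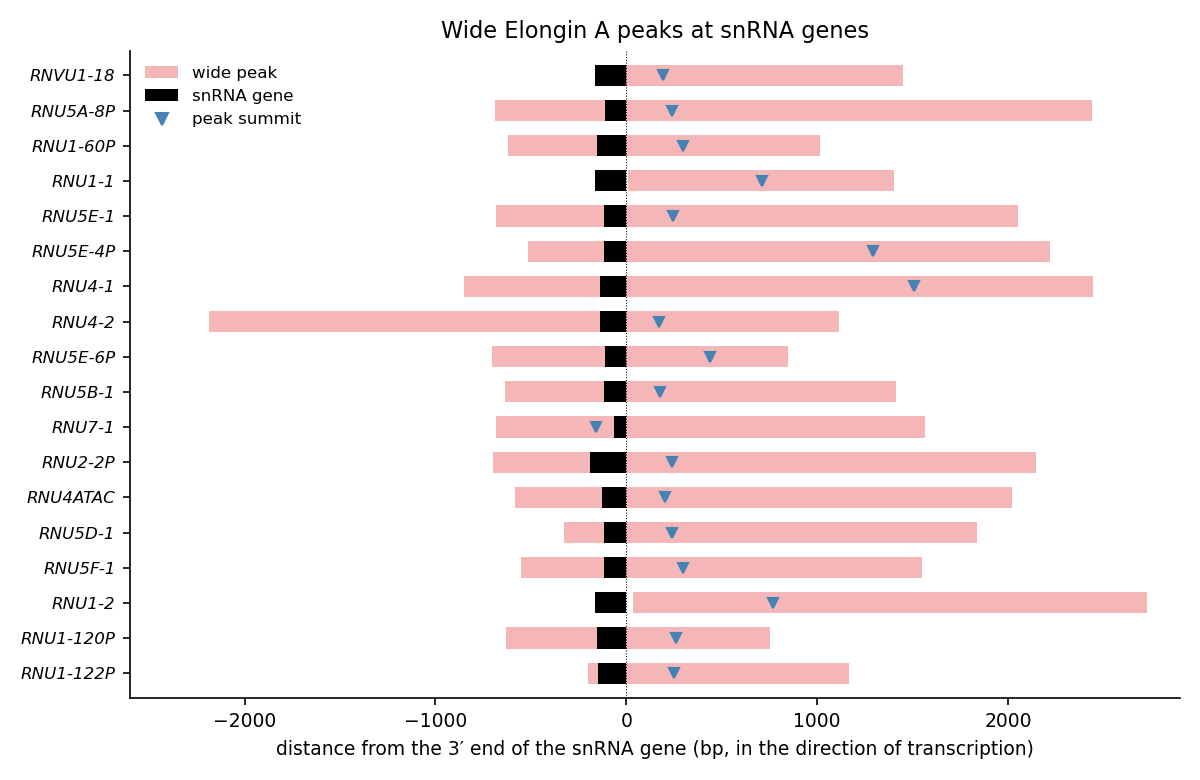
Wide peaks (pink) at 18 snRNA genes (black), aligned at the 3′ end of each gene, with the distance from it in bp on the x axis and the summit as a blue triangle. Genes are ordered by fold enrichment, RNU6-450P, which lies outside its peak, is not drawn, RNU4-1 with RNU4-2 and RNU5E-1 with RNU5E-4P share a peak, and every summit but that of RNU7-1 lies right of the gene end.

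Introns of snoRNA host genes are processed into the guides of ribosomal RNA modification. Of 17 noncoding host genes, 8 had a wide peak. Peaks covered 95.7% of the transcript of SNHG1, 86.5% of SNHG3 and 76.5% of GAS5, and from 8.79% (SNHG5) to 45.1% (ZFAS1) of the other hosts with a wide peak. GAS5 had a peak of 6686 bp (15.9-fold), SNHG3 of 5984 bp (13.3-fold, inside the transcript of RCC1), SNHG1 of 5303 bp (12.8-fold), ZFAS1 of 4127 bp (8.48-fold) and SNHG29 of 3512 bp (13.4-fold). The SNHG1 peak ran from 168 bp after the start site to 1526 bp past the end. ZFAS1 had 3 wide peaks. The independently transcribed snoRNA genes SNORD118, which encodes U8, and a U3 gene inside TEX14 had wide peaks of 1812 and 1658 bp with summits 266 and 213 bp past the gene end, as at the snRNA genes.

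Some wide peaks sat over coding start sites. A canonical coding start site lay inside 43 of 393 (10.9%) and inside 304 narrower peaks (3.65%), a count that length favours, and start sites of both strands lay inside 3, at HNRNPA1 with CBX5, at H2AC20 with H2BC21 and at NIF3L1 with PPIL3. The strongest of the start site peaks after SRSF1 were at MCRS1, in a promoter window shared with PRPF40B (1294 bp, 25.6-fold) and at NAPG (1096 bp, 23.6-fold). Among polymerase genes, POLR2A, which encodes the largest polymerase II subunit, had a 1607 bp peak over its start (7.22-fold). HEXIM1, the inhibitor of P-TEFb, had one of 1225 bp over its start (4.32-fold). SUPT4H1, of the elongation factor DSIF, was counted through a 1474 bp peak in its neighbour RNF43. CTR9, of the PAF1 complex, was counted through 2 wide peaks at its neighbour EIF4G2 and held no covered base in its canonical transcript.

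Wide peaks came in runs at some loci. Chained at gaps of at most 10 kb, 146 of the 393 fell into 58 runs, of which 8 held 4 or 5 wide peaks. NPM1, a nucleolar chaperone, had 5 wide peaks over 19.9 kb, the widest 5157 bp and 7.76-fold, with 61.2% of the run covered by peaks. TRA2B had 4 over 11.0 kb with 90.0% covered, and HSP90AB1, a heat shock protein 90 gene, had 4 over 8.36 kb with 83.4% covered. Other runs were on genes that are not of the RNA or translation groups. The HOXB cluster of homeobox genes had a run of 5 wide peaks over 17.0 kb at HOXB3 (65.1% covered) and one of 3 over 8.32 kb at HOXB9. EREG, an EGF receptor ligand, had 4 over 17.7 kb (64.2% covered), one of them past its end, FAT1, a large cadherin, had 4 over 15.5 kb (62.9% covered) among its 7, and AXIN2, a WNT target, had 3 over 12.7 kb. MIRLET7BHG, the host of let-7 microRNAs, had 5 over 22.4 kb, and LINC00513, which overlaps LINC-PINT, had 4 over 18.2 kb. TXNRD1, a thioredoxin reductase, had 3 over 10.9 kb in the middle of a 135 kb transcript. GATA6, an endoderm transcription factor, and MALAT1, a nuclear RNA, had 3 each.

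By centre, 39 wide peaks were in no gene, promoter or TTS window. Of these 12 (30.8%, 18.6 to 46.4) lay within 10 kb past the end of a coding gene, compared with 242 of 1536 (15.8%, 14.0 to 17.7) intergenic narrower peaks. The widest was 3336 bp long (9.64-fold) and ran over the transcript end of RPL3. Others followed EREG (2756 bp, centre 1682 bp past the end), TNS4 (2592 bp, 3293 bp past), HSPA8 (2043 bp, 1952 bp past) and KRT8 (1855 bp, 1084 bp past). NCL and HSP90AA1 also had one past the end.

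Counted by gene, 310 of 20149 protein-coding genes (1.54%) had the centre of a wide peak in their promoter window, body or TTS window, of the 4309 (21.4%) that had any peak. Of the 310, 54 had 2 or more and 16 had 3 or more. Lists of related genes were read against these backgrounds, with no test, because members of the lists were chosen with results of these data known. The backgrounds of noncoding genes were lower, with a wide peak in 0.407% and any peak in 8.27% of 18671 long noncoding RNA genes, and in 0.895% and 1.79% of 1900 annotated snRNA genes. The annotated snRNA genes include pseudogenes such as RNU5A-8P and RNU1-60P that are not in the list of independent snRNA genes. Their share is therefore not a like background for that list. The highest shares with a wide peak were in independent snRNA genes (11 of 17, 64.7%), noncoding snoRNA hosts (8 of 17, 47.1%), hnRNP genes (8 of 21, 38.1%), SR proteins (5 of 14, 35.7%) and cytosolic ribosomal proteins (27 of 86, 31.4%, interval 22.6 to 41.8). The hnRNP count includes HNRNPAB and HNRNPU, each with a wide peak mostly outside its canonical transcript. Translation factors had one in 9 of 38 (23.7%), chaperones in 3 of 15 (interval 7.05 to 45.2%) and replication-dependent histones in 12 of 64 (18.8%). The histone peaks were often shared between neighbours, as at H4C1 with H3C1 (1776 bp, 4.88-fold) and H2AC20 with H2BC21 (1625 bp, 4.01-fold). H2AC21 (1625 bp) and H3C10 (1158 bp) were covered whole.

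Immediate early and stress genes had a wide peak in 5 of 34 (14.7%), at EGR1 (2749 bp, 3.21-fold), ATF4 (2128 bp, 4.90-fold), JUN (1714 bp, 2.59-fold), DDIT4 and IER2. This JUN peak overlapped no canonical coding transcript, and DDIT4 had no canonical transcript in the annotation on which to place its peak. Colon epithelial and WNT target genes had one in 7 of 29 (24.1%), at CCND1 (3900 bp, 5.32-fold, over the transcript end), AXIN2, RNF43, CLDN4, KRT18, TCF7L2 and KLF5. Several lists had few or no genes with a wide peak. For each list with 0, the interval includes the 1.54% of all protein-coding genes, so its 0 does not set it apart from that share. Glycolysis enzymes had any peak in 9 of 14 and a wide peak in 0 (interval to 21.5%), and actin, tubulin and actin-binding genes in 8 of 12 and 1, at TUBA1C. That is 8.33% of this list (interval 1.49 to 35.4%), which is above 1.54% though the interval includes it. Proteasome subunits had a peak in 11 of 39 and a wide one in 0 (to 8.97%), oxidative phosphorylation genes in 24 of 98 and 1, and zinc finger genes in 69 of 476 and 4. The last of these, 14.5% with any peak and 0.840% with a wide one, and the 24.5% and 1.02% of oxidative phosphorylation genes were near or below the shares of all protein-coding genes. RNA polymerase II and elongation factor genes had a wide peak in 4 of 39 (10.3%), and abundant long noncoding RNA genes in 3 of 12, at NEAT1, LINC-PINT and MALAT1. The oxidative phosphorylation gene was NDUFB10, through the peak at its neighbour RPS2. Markers of nonepithelial cells had a wide peak in 0 of 11 (to 25.9%). Polymerase III genes for small RNAs had a peak in 3 of 12 and a wide one in 0 (to 24.2%). Long and short genes differ in the sequence they offer to a peak, and the part of length in these shares was not tested.

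**Figure D5:**
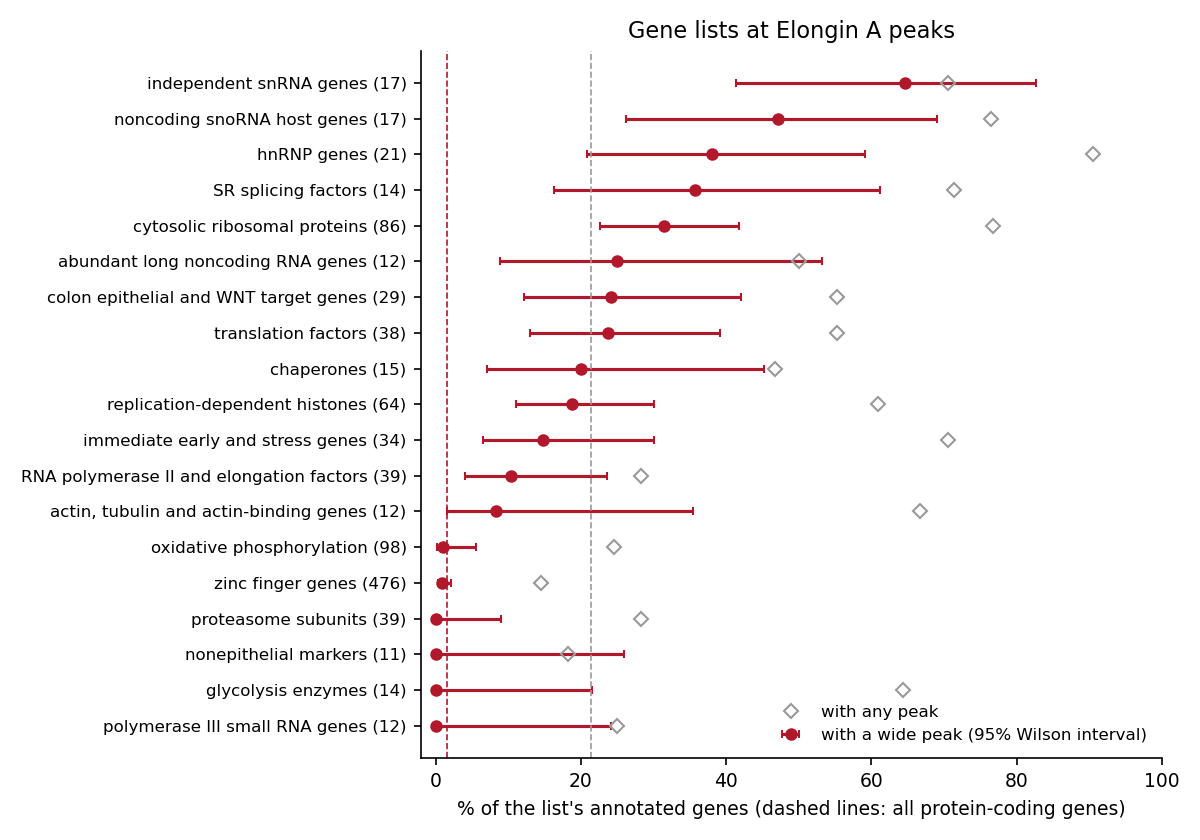
Percent of the annotated genes of each list (number in parentheses) with a wide peak (red, with the 95% Wilson interval) and with any peak (grey diamonds). The dashed lines are the shares of all protein-coding genes, 1.54% with a wide peak and 21.4% with any peak, and the red points run from 0 to 64.7%.

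The other 2 Elongin A lists did not enter the choice of the wide peaks and share the cell line and the target with them. A mouse antibody peak covered the summit of 74 wide peaks (18.8%) and 521 narrower peaks (6.26%), a difference of 12.6 points (8.98 to 16.8). A ChIP-seq peak covered the summit of 24 wide peaks (6.11%, 4.14 to 8.93) and of 24 narrower peaks (0.288%, 0.194 to 0.429). The ChIP-seq share was 2.39% in peaks from 1000 to below 1500 bp and 12.7% in those of 1500 bp or more. Fold enrichment moved with these shares. At 10-fold or more, the mouse antibody share was 53.7% of 41 wide and 23.7% of 38 narrower peaks, with overlapping intervals, whereas below 5-fold it was 13.7% (9.05 to 20.2) and 6.57% (5.97 to 7.23). The ChIP-seq shares of wide and narrower peaks also had overlapping intervals at 10-fold or more, 36.6% (23.6 to 51.9) and 10.5% (4.17 to 24.1). They overlapped from 5 to below 7-fold too, at 0.800% and 0.201%. The intervals were apart below 5-fold (1.37% and 0.202%) and from 7 to below 10-fold (7.41% and 1.16%). In 17 wide peaks both other lists had a peak at the summit. Those of RNU4-2, RNU2-2P, RNU5E-1, RNU5D-1, RNU5F-1, RNU5B-1 and RNVU1-18, the snRNA pseudogenes RNU5A-8P, RNU1-60P and RNU1-120P, SNORD118 and the U3 gene made up 12 of the 17. The remaining 5 were at HOXB6, LINC00910, TAF12, POLDIP3 and ENSG00000272426. The peaks at TAF12 and POLDIP3 each held a whole gene without a symbol that is annotated as a long noncoding RNA, ENSG00000270103 and ENSG00000270022, and whether these or ENSG00000272426 are small RNA genes under other names was not tested. The highest ChIP-seq enrichment at a wide summit was 47.1-fold, at RNU2-2P.

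Sequence was compared in 300 bp around the summit, a window that does not depend on width. Median G and C content was 43.7% in wide and 44.3% in narrower peaks, and the median observed to expected ratio of CG dinucleotides was 0.249 and 0.241. Motifs were searched on both strands. TGACTCA, the AP-1 motif, was in 7.63% (5.40 to 10.7) of wide and 13.3% (12.6 to 14.0) of narrower windows. ATGCAAAT, the octamer, was in 3.82% and 1.93%, with an interval of the difference from 0.359 to 4.28 points, and CCAAT was in 40.2% and 34.7%, a difference of 5.52 points (0.680 to 10.5). For GGGCGG (9.67% and 12.8%), TATAAA (25.2% and 22.4%), CCGGAAG (2.04% and 2.61%), TGACGTCA (0.254% and 0.444%) and GCGCATGCG (0.763% and 0.540%) the interval of the difference included 0. A match describes the letters of the window and not a binding site.

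By chromosome, wide peaks made up 8.30% (6.15 to 11.1) of the 482 peaks on chromosome 17, which holds the HOXB cluster and DDX5, and 1.35% (0.577 to 3.12) of the 371 on chromosome 8. Chromosome 21 had 0 wide peaks among 88 (interval to 4.18%). Of 13 genes that mark colon epithelial cells, 6 had a peak and KRT18 alone was assigned a wide one, which covered 0 bases of its canonical transcript. The wide peak 1084 bp past the end of KRT8, another of these markers, was not assigned to it. None of the 5 fibroblast markers had a peak, and PTPRC among 4 leukocyte markers and VWF among 3 endothelial markers had narrower peaks.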

How the data were processed

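Elongin A CUT&RUN (goat antibody, 2 replicates, and mouse antibody, 1 sample) and ChIP-seq (1 sample) from DLD1 cells were analysed as the authors' peak lists. Per the methods of the study, paired-end reads were aligned to hg19 with Bowtie2, duplicates were removed with Picard and peaks were called with MACS2 at default parameters against goat IgG for CUT&RUN or input for ChIP-seq (the labels list mouse IgG with the mouse antibody peaks). Whether the 2 goat replicates were pooled before calling is not given in the sources used here. The deposited lists give each peak's position, its summit, a ratio (fold enrichment over control) and the −log10 of its q-value. RNA-seq, 4sU-seq and the other ChIP-seq samples were not analysed here.

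Peaks of at least 1000 bp were taken as wide. The centre or summit stood for a peak. GENCODE release 44 on GRCh37 (the same build as hg19) gave promoter windows (1000 bp before to 100 bp after a start site), TTS windows (100 bp before to 1000 bp after an end), gene bodies and intergenic sequence, in that order of preference. Hosts were canonical transcripts. Summit windows of 300 bp and 32 bp were read from GRCh37. Shares carry 95% Wilson intervals and differences Newcombe intervals, and no p-value was computed. A narrower class from 500 to below 1000 bp, other widths, merged peaks, thresholds on q and fold enrichment, gene sets, points and match rules were tried as alternatives. Wide members and gene lists were chosen with earlier results of these data known. Named are the 10 widest and 10 strongest wide peaks, those at the threshold, genes with 2 or more wide peaks, the 3 widest of each class, peaks over whole genes, up to 5 members of each list (more where a count is spelled out, chosen after their values were seen) and peaks in all 3 lists. RNU2-1, RNU11, RNU12, RPPH1 and RN7SL1 were not matched by name in the annotation. Some named members are not reported here. The code was tested on simulated data. Python 3.11.15, pandas 2.3.3, numpy 2.4.6 and pysam 0.24.0 were used.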

Additional observations from a re-analysis of the deposited data

Results flagged for a closer look

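The mouse antibody list held 17 peaks of 1000 bp or more among 2338 (0.727%), and 16 of them touched a wide goat antibody peak. The widest were at SNHG3 (4536 bp), EEF1A1 (4056 bp), DDX5 (2577 bp) and EIF4A2 (2256 bp). The only one that touched none was a 1049 bp peak at HOXB3. The ChIP-seq list held 6 such peaks among 186 (3.23%), and 2 of them, at MIRLET7BHG (2089 bp) and at RNU2-2P with WDR74 (1019 bp), touched a wide goat antibody peak. These 2 lists were looked at because they are signal outside the goat antibody list. The labels pair the mouse antibody list with mouse IgG, while the methods name goat IgG for CUT&RUN, so the control behind the mouse antibody peaks is uncertain. Widths depend on the depth of each library, which is unknown, and the part of depth in these counts was not tested.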

How the results depend on the processing

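Of 124 alternative values, 84 stayed inside the 95% interval of the reported value (within 1.5 times for counts) and 40 moved outside it. No difference whose interval excluded 0 changed sign, but the promoter difference, whose interval included 0, did so with RefSeq-curated genes. The TTS difference kept an interval above 0 in 13 of 13 alternatives. The promoter difference had an interval above 0 in 2 of 13.

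With a width of 800 bp there were 705 wide peaks, with 17.6% in TTS windows (difference 11.0 points), 25.1% of summits in an exon, 14.2% near a coding transcript end, 4.11% with a ChIP-seq peak, and 2.59% of coding genes with a wide peak. With 1500 bp there were 142, with 35.9% in TTS windows (difference 28.9 points), 4.93% intergenic, 40.1% in an exon, 28.2% near a coding transcript end, 7.75% near a coding start site, 29.6% with a mouse antibody peak, 12.7% with a ChIP-seq peak and 0.601% of coding genes. Merging peaks within 1 kb gave 710, with 19.0% in TTS windows (difference 13.7 points), 13.8% near a transcript end, 13.9% with a mouse antibody peak, 3.80% with a ChIP-seq peak and 2.78% of coding genes. A fold enrichment of at least 5 left 247, with 30.0% in TTS windows, 6.88% intergenic and 0.993% of coding genes. With protein-coding genes only, 22.4% were in promoter windows, 20.1% in TTS windows and 20.6% intergenic, and 23.2% of summits were in an exon. With basic transcripts of RefSeq-curated genes, matched by symbol, the promoter share was 15.5%, its difference -1.57 points and the exon share 21.6%. The larger promoter window gave 39.9% in promoters, 18.8% in TTS windows and a TTS difference of 13.7 points, since promoters take precedence. A mouse antibody match by overlap gave 30.3%, and one by summits within 500 bp 23.9%. Except where construction shows it, the cause was not tested. Leaving out small RNA genes, and the alternatives for TTS windows and transcript ends, were chosen after seeing the data.

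No paired analysis was possible because the goat antibody list does not separate its replicates. Leaving out a replicate was not possible for the same reason. The lists hold no read totals, so no width or share was set against depth. The mouse antibody and ChIP-seq lists come from 1 sample each.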
